A study of Mus musculus with 20 samples.

Results

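Interferon-stimulated genes are genes whose transcription is switched on when a cell receives an interferon. The set described here is a fixed list of 9 of them: Isg15, Ifit1, Ifit2, Ifit3, Oasl1, Irf7, Usp18, Rsad2 and Ifi44. Their Ensembl identifiers were found through GENCODE M21 symbols, each symbol matched 1 of the 46603 identifiers counted in the files, and all 9 were among the 14661 genes abundant enough to be tested. They were listed by name, with earlier results of these data known, and no threshold on a measured value defines the list.

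The study measured polyA RNA of mouse liver in 20 libraries, 4 groups of 5. Wild-type (WT) mice were C57BL/6J animals bought from a vendor, and knockout (KO, EedHepKO) mice were bred from an Alb:Cre line and a line with loxP sites at exons 3 and 6 of Eed, on a strain labelled the same. All mice were males aged 2 months. Baseline samples (0 h) were lobes 1, 2 and 3, taken at partial hepatectomy (PHx), the surgical removal of most of the liver, and the samples after PHx were lobes 4, 5 and 6, taken at 30 h (1 library per genotype), 40 h (2 per genotype) or 48 h (2 per genotype). The albumin promoter drives Cre in hepatocytes and their precursors, and which other liver cells keep Eed was not measured. EED is a core subunit of polycomb repressive complex 2, which places repressive methyl marks on histones. The genotype cannot be told apart from the colony of origin, and the response to PHx cannot be told apart from the lobe.

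Type I interferons bind receptors on the cell surface, the receptors activate the kinases JAK1 and TYK2, and these phosphorylate transcription factors. The factors enter the nucleus and bind a short GAAA-repeat element in the promoters of interferon-stimulated genes. In liver the pathway is known for the defence of hepatocytes and Kupffer cells, the resident macrophages, against viruses. The 9 genes have different roles in it. IRF7 is a transcription factor that amplifies interferon production. The IFIT proteins, made from Ifit1, Ifit2 and Ifit3, bind foreign RNA or the complexes that do. OASL1 is a relative of the oligoadenylate synthetases that restrains translation of Irf7 mRNA, and RSAD2 (viperin) is an enzyme that makes a chain-terminating nucleotide. ISG15 is a ubiquitin-like protein attached to other proteins, USP18 removes it and also dampens signalling at the receptor, and Ifi44 encodes an interferon-induced cytoplasmic protein.

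Total counts ran from 21634890 to 30461351 per library, and single libraries held 5 to 3406 reads of a member. Eed itself lay between 14.6 and 23.2 CPM (reads per 1000000 reads of the TMM-scaled library total) in the 10 WT libraries and between 2.75 and 7.52 CPM in the 10 KO libraries. Hepatocyte markers summed to between 42416 and 148513 CPM over all libraries. WT baseline replicate 1 stood apart from the other 4 WT baseline libraries, with a chi-square per degree of freedom of 331 to 361 against 27.2 to 40.7 among those 4, and the differences of the 9 genes at baseline are given with and without it. These are bulk samples, so fewer cells of a type and less RNA per cell cannot be told apart.

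The promoters show what 4 of the members share in sequence. RefSeq windows of 250 bases before to 50 bases after a gene's start (GRCm38.p6) were found for 8 of the 9 genes, all but Usp18. The motif GAAANNGAAA, searched on both strands with overlapping matches counted, was in the windows of 4 of these 8 (Isg15, Ifit1, Ifit3 and Rsad2), or 50% of them, against 3.99% of 27025 genes and 3.44% of 32851 windows. No match lay in the windows of Ifit2, Oasl1, Irf7 and Ifi44. Stretches that hold the matches follow, ending 41 bases before the gene's start, each read 5′ to 3′ on the gene's own strand, with the matches in capitals (TTTCNNTTTC is the same motif on the other strand). They are shown so that spacing and strand can be compared, and a match is a description of the letters only.
Isg15, chr4:156200859-156200988, minus strand: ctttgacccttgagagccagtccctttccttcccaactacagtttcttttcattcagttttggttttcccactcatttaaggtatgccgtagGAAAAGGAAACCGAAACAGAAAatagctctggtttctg
Ifit1, chr19:34640744-34640848, plus strand: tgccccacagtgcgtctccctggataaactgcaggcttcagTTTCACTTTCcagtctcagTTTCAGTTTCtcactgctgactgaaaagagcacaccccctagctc
Ifit3, chr19:34583359-34583488, plus strand: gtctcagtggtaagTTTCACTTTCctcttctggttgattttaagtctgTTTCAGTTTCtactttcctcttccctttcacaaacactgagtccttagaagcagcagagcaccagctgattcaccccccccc
Rsad2, chr12:26456493-26456622, minus strand: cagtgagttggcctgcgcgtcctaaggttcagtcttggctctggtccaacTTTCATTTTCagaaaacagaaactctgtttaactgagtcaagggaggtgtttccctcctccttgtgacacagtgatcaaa

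Isg15 held 3 overlapping matches on its own strand, with first bases at -78, -72 and -66 from the start. Ifit1 held 2 matches on the other strand, at -104 and -85, and Ifit3 held 2 on the other strand, at -156 and -122. Rsad2 held 1, at -120 on the other strand. The motif was also in 12 of 30 genes (40%) of a list of other type I interferon-stimulated genes and in 10 of 19 genes (52.6%) of a list of interferon-gamma-induced genes.

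The genes lie on 7 chromosomes (mm10), and all are protein coding. Ifit1 (ENSMUSG00000034459, chromosome 19, 34640871 to 34650009), Ifit2 (ENSMUSG00000045932, 34550694 to 34576419) and Ifit3 (ENSMUSG00000074896, 34583531 to 34588731) are neighbours on the plus strand of chromosome 19. Irf7 (ENSMUSG00000025498) is at 141262706 to 141266481 on chromosome 7 and Isg15 (ENSMUSG00000035692) at 156199424 to 156200818 on chromosome 4. Oasl1 (ENSMUSG00000041827) is at 114923240 to 114937915 on chromosome 5 and Usp18 (ENSMUSG00000030107) at 121245906 to 121270917 on chromosome 6. Rsad2 (ENSMUSG00000020641) is at 26442746 to 26456452 on chromosome 12 and Ifi44 (ENSMUSG00000028037) at 151730922 to 151749960 on chromosome 3. Only uniquely mapped reads were counted, and 51.2% of the 50-base words of the Ifit3 transcripts recur in other genes, most of them in its near copy Ifit3b, so the Ifit3 counts are uncertain. The share was 7.13% for Ifit1, 3.96% for Isg15 and 0 for the other 6. Exons of Oasl1, Irf7 and Usp18 overlap an opposite-strand gene (Gm13822, Phrf1 and Gm44148) by 38, 45 and 124 bases, and without a stated strand setting the reads there cannot be told apart.

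At baseline all 9 genes had a higher mean level in KO than in WT liver, and 2 of them, Irf7 and Ifit2, passed the test (edgeR quasi-likelihood test, p adjusted by Benjamini-Hochberg over the 14661 genes, threshold 0.05, here termed called). Of all genes tested, 11.1% were called higher and 4.89% lower in this comparison, 16% in either direction. The comparison sets EedHepKO against WT in resting liver, and the activity of polycomb repressive complex 2 is not measured by RNA counts. The median log2 difference was 1.07 over the 9 genes and -0.03 over all genes. In 5 of the 9 (Ifit2, Oasl1, Irf7, Usp18 and Ifi44) each KO baseline library lay above each WT baseline library, against 15.6% of all genes (12.2% lay apart with KO lower).

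Irf7, the transcription factor, was at 28.1, 29.9, 21.7, 18.2 and 22.1 CPM in the WT baseline libraries and at 50.5, 41.7, 47.0, 48.1 and 64.9 CPM in the KO baseline libraries. The lowest KO value was above the highest WT value. The level was 2.10-fold higher in KO (log2 1.07, SE 0.25, edgeR adjusted p 0.00551). Without WT baseline replicate 1 the log2 difference was 1.14 (edgeR adjusted p 0.00948, against 0.000154 to 0.0208 over all 17 alternatives).

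Ifit2, an RNA-binding effector, stood at 3.31, 2.65, 2.62, 1.47 and 2.80 CPM in WT and at 13.1, 11.1, 9.97, 7.27 and 5.68 CPM in KO. All 5 KO libraries were above all 5 WT libraries, and the KO values spread more widely. The difference was 3.67-fold (log2 1.88, SE 0.44, edgeR adjusted p 0.00655). Without WT baseline replicate 1 it was 1.98 on the log2 scale (edgeR adjusted p 0.0116, against 0.000155 to 0.0234 over all 17 alternatives).

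Usp18, which removes ISG15 from proteins, had 7.09, 8.40, 2.57, 4.27 and 3.85 CPM in WT and 15.4, 17.1, 12.7, 11.9 and 20.6 CPM in KO. The groups did not overlap, but the adjusted p missed the threshold (log2 1.57, SE 0.56, edgeR adjusted p 0.0604). Oasl1 had 10.9, 13.8, 6.79, 10.4 and 9.17 CPM in WT and 28.3, 13.82, 28.7, 30.0 and 23.5 CPM in KO. KO replicate 8 (13.82) and WT replicate 2 (13.80) almost touched, and the difference was not called (log2 1.28, SE 0.50, edgeR adjusted p 0.0829). Ifi44 had 2.54, 2.55, 2.32, 1.88 and 1.79 CPM in WT and 6.04, 7.78, 4.38, 4.45 and 6.10 CPM in KO, again without overlap and not called (log2 1.38, SE 0.63, edgeR adjusted p 0.145).

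The other 4 genes overlapped between genotypes. Isg15 ranged from 4.04 to 12.85 CPM in WT and from 12.6 to 23.2 CPM in KO (edgeR adjusted p 0.207), and Rsad2 from 7.11 to 13.9 and from 13.1 to 23.9 CPM (0.321, edgeR adjusted p). Ifit1 ranged from 5.23 to 12.1 CPM in WT and from 8.03 to 18.45 CPM in KO, and Ifit3 from 5.46 to 13.3 and from 7.98 to 16 CPM, with edgeR adjusted p of 0.514 and 0.633. Without WT baseline replicate 1 the other 7 genes were again not called, with log2 differences from 0.64 to 1.70 and edgeR adjusted p from 0.0761 to 0.494. With only the 10 baseline libraries fitted, 7 of the 9 were called higher (all but Ifit1 and Ifit3), against 21.4% of all genes in that fit. DESeq2 called 4 higher (Ifit2, Irf7, Oasl1 and Usp18), against 14.6% of all genes.

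**Figure D1:**
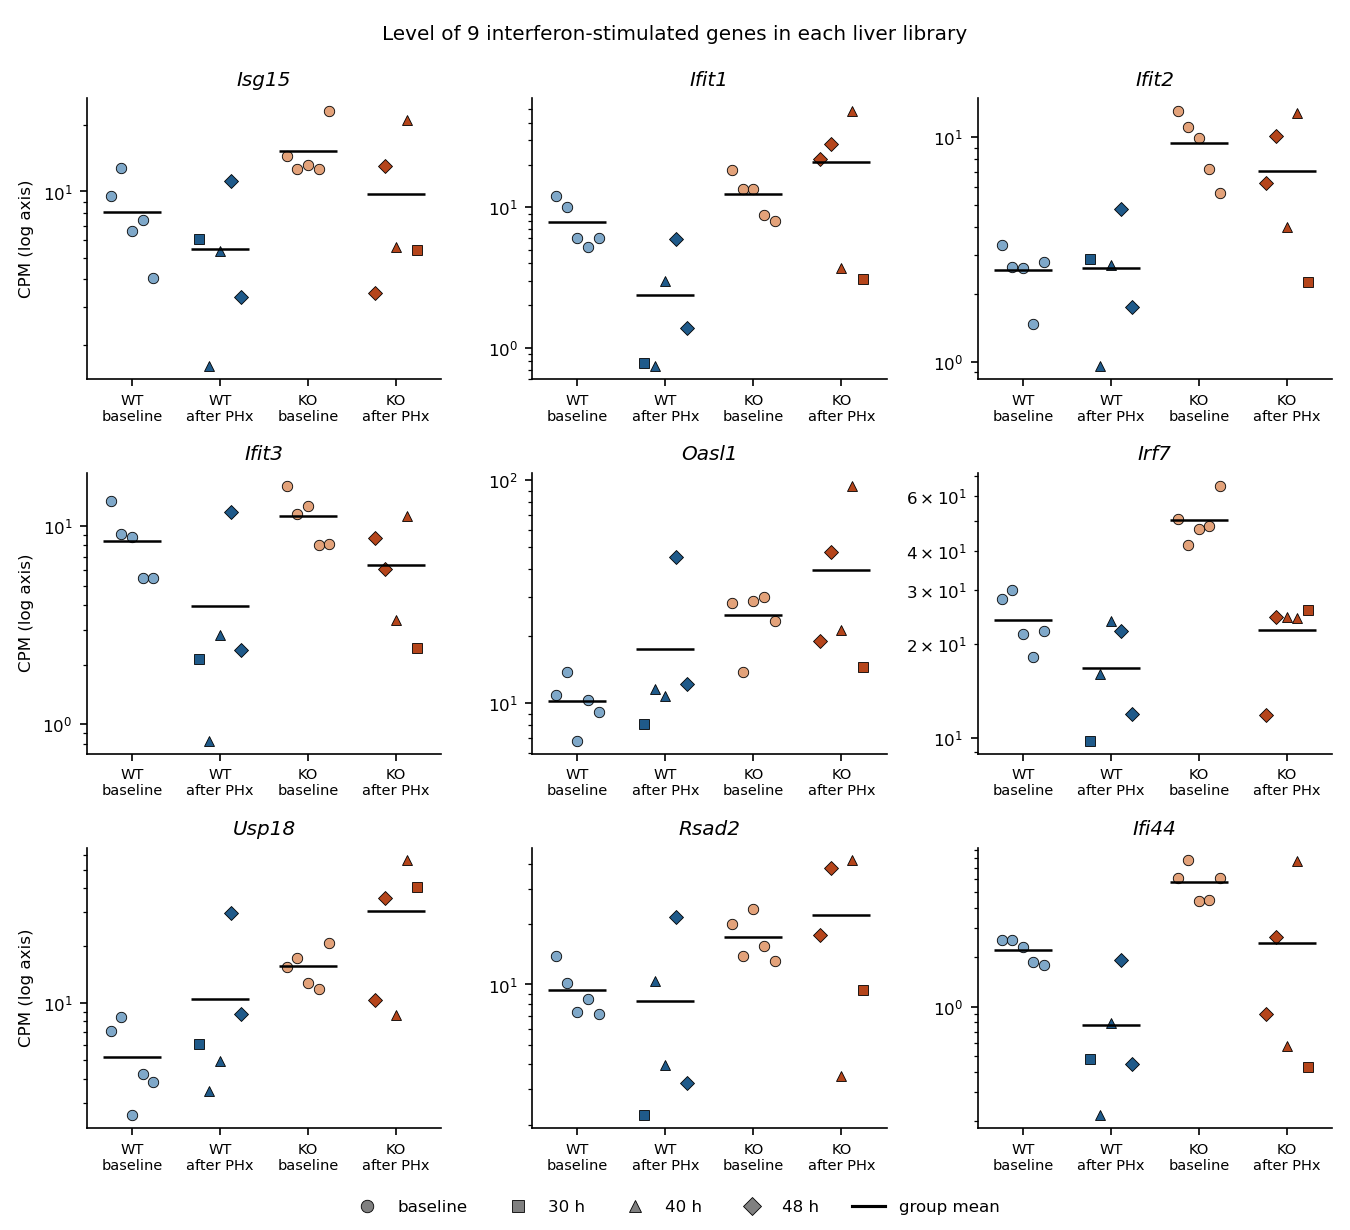
CPM on a log axis (y) of each of the 9 genes in each library, by group (x). Circles are baseline, squares 30 h, triangles 40 h and diamonds 48 h after PHx, and bars are group means of 5 libraries. For Irf7 the KO baseline libraries (41.7 to 64.9 CPM) sit above all other libraries, while after PHx the ranges of the genotypes overlap for every gene.

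Several lists of cell type markers differed between the genotypes in the same libraries. Of all genes 11.1% were called higher and 4.89% lower at baseline. Macrophage markers summed to between 190 and 334.5 CPM in WT baseline and between 490.6 and 632.8 CPM in KO baseline libraries, and 4 of the 10 (Lyz2, C1qa, Cd68 and Csf1r) were called higher in KO. Monocyte and neutrophil markers summed to between 1.84 and 3.53 CPM in WT and between 6.76 and 27.3 CPM in KO, with 4 of the 6 tested called higher and Ly6g at 0 in most libraries. Stellate cell markers ran from 173.9 to 291.7 CPM in WT and from 448.4 to 594.3 CPM in KO, with 5 of 8 called higher. Hepatocyte markers were at 126982 to 148513 CPM in WT and 78837 to 108015 CPM in KO, with 3 of 8 called lower. Of 6 markers of plasmacytoid dendritic cells, a cell type known for making much interferon, 2 were abundant enough to be tested, and neither was called. Their sum (14.1 to 16.6 CPM in WT and 11.7 to 19.9 CPM in KO) was nearly all Tcf4, at means of 15.3 and 14.5 CPM. The other 5 had low levels with higher means in KO, such as Siglech at 0.243 ± 0.227 CPM in WT and 0.858 ± 0.526 CPM in KO (SD, n = 5), and Klk1 was at 0 in 5 of 5 WT and in 0 of 5 KO baseline libraries. Cholangiocyte markers summed to between 23.3 and 58.25 CPM in WT and between 55.5 and 358.6 CPM in KO, with 1 of 5 tested called higher. T and NK cell markers summed to between 2.89 and 4.55 CPM in WT and between 4.51 and 7.73 CPM in KO. None of the 4 tested of these was called, nor of 4 B cell markers, and 1 of 8 endothelial markers was called higher. The part of these markers in the differences of the 9 genes was not tested.

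After PHx the mean level of all 9 genes was again higher in KO than in WT liver, and 2 genes, Ifit1 and Ifit2, were called higher, against 16% of all genes (8.2% were called lower, 24.2% in either direction). The comparison sets EedHepKO against WT in the regenerating liver. The median log2 difference was 1.42 over the 9 genes and -0.01 over all genes. The genotypes overlapped for each of the 9, whereas 7.05% of all genes had every KO library above every WT library and 2.97% every one below.

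Ifit1 had 0.785 (30 h), 0.739 and 2.97 (40 h), 5.96 and 1.37 CPM (48 h) in WT. In KO it had 3.08 (30 h), 3.70 and 48.4 (40 h), 22.2 and 28.2 CPM (48 h). WT replicate 4 was the only WT library above the lowest KO libraries, and KO replicates 7, 8 and 11 were far above the other 2. The difference was 8.88-fold (log2 3.15, SE 0.68, edgeR adjusted p 0.00231). It was called under all 19 alternatives, with a log2 difference from 2.52 to 3.79.

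Ifit2 had 2.88 (30 h), 0.957 and 2.70 (40 h), 4.82 and 1.75 CPM (48 h) in WT. In KO it had 2.27 (30 h), 4.00 and 12.8 (40 h), 6.29 and 10.15 CPM (48 h). The 30 h library was the lowest of the KO group and lay within the WT range. The difference was 2.71-fold (log2 1.44, SE 0.43, edgeR adjusted p 0.0210).

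Usp18 after PHx had 6.06 (30 h), 3.44 and 4.99 (40 h), 29.5 and 8.76 CPM (48 h) in WT, and 40.8 (30 h), 8.62 and 56.0 (40 h), 10.3 and 35.6 CPM (48 h) in KO. It just missed the threshold (log2 1.52, SE 0.55, edgeR adjusted p 0.0503). Ifi44 (log2 1.65), Rsad2 (1.42) and Oasl1 (1.16) followed with edgeR adjusted p of 0.0683, 0.0846 and 0.0908. Isg15, Irf7 and Ifit3 had log2 differences of 0.83, 0.41 and 0.68, with edgeR adjusted p of 0.222, 0.239 and 0.379.

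How many of the 9 were called after PHx depended on single libraries. Without WT replicate 4 it was 7 (all but Isg15 and Irf7), and without WT replicate 5, KO replicate 8 or KO replicate 11 it was 1 (Ifit1). It was 4 without KO replicate 7 or 12, 5 without KO replicate 10, and 6 without WT replicate 4 and KO replicate 11 together. The share of all genes called higher was 15.3% without WT replicate 4 and 14.4% without WT replicate 5. It was 14.8%, 13.1%, 19.9%, 13.8% and 16.5% without KO replicates 7, 8, 10, 11 and 12, and 13.5% without the pair. Fitting only the 10 libraries after PHx called 1, against 8.12% of all genes, and DESeq2 called 5, against 18.2%. After PHx macrophage markers summed to between 79.8 and 401.2 CPM in WT and between 110.2 and 431 CPM in KO. Of the 10, 2 were called higher, near the 16% of all genes in the fit reported (8.2% were called lower). Cholangiocyte markers summed to between 21 and 238.7 CPM in WT and between 119.9 and 561.5 CPM in KO. Of 5 tested 4 were called higher, and Spp1 had the highest mean (79.1 and 233 CPM). Stellate cell markers did not overlap, at 190.9 to 251.1 CPM in WT and 295.5 to 517.4 CPM in KO, with 3 of 8 called higher. Of the hepatocyte markers 2 of 8 were called lower. The part of these markers in the counts above was not tested.

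**Figure D2:**
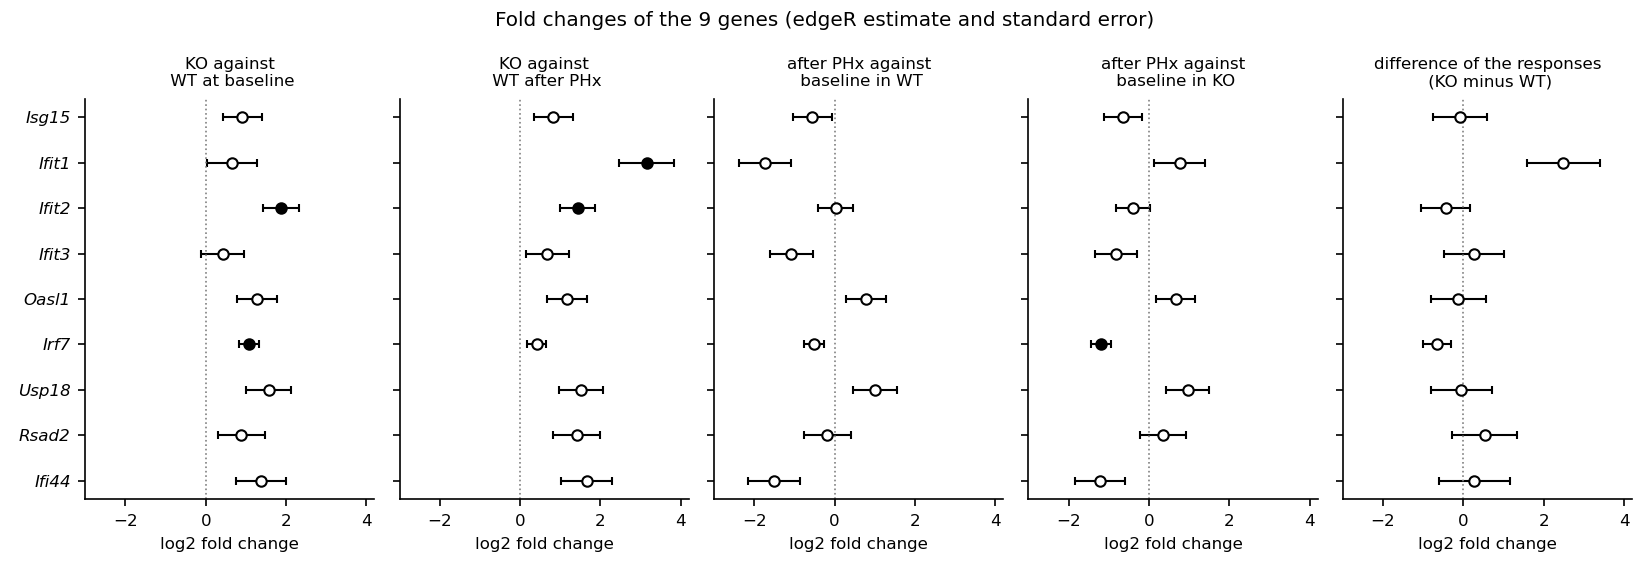
Log2 fold change (x) of each gene (y) in the 5 comparisons, with bars of 1 standard error. Filled points passed the test: Irf7 and Ifit2 at baseline, Ifit1 and Ifit2 after PHx, and Irf7 in the response to PHx in KO. All 18 points of the first 2 panels are above 0.

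The time points after PHx hold few libraries. At 40 h, with 2 libraries per genotype, 5 genes were called higher in KO (Ifit1, Ifi44, Usp18, Oasl1 and Ifit2), against 8.61% of all genes called higher and 4.68% lower (13.3% in all), with log2 differences of 3.8, 2.99, 2.94, 2.37 and 2.19 and edgeR adjusted p from 0.0188 to 0.0453. KO replicate 11 held the higher level of 8 of the 9 genes (all but Irf7). Oasl1 was at 94.7 CPM there and at 21.3 CPM in KO replicate 10, and at 11.6 and 10.8 CPM in WT replicates 2 and 3. No gene was called without KO replicate 11, without WT replicate 2 or with only the 4 libraries of 40 h fitted, and 8 were without KO replicate 10. The shares of all genes called higher were 3.16%, 0.964%, 0.241% and 11.2% in these fits.

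At 48 h 1 gene was called higher in KO, Ifit1 (log2 2.78, SE 0.91, edgeR adjusted p 0.0360), against 13.7% of all genes called higher and 10.7% lower (24.3% in all). The other 8 had log2 differences from 0.07 to 1.32. No gene was called without WT replicate 5, KO replicate 7 or KO replicate 8, or with only the 4 libraries of 48 h fitted, and 3 were without WT replicate 4 (Ifit1, Ifit2 and Rsad2). The shares of all genes called higher were 8.59%, 9.44%, 8.38%, 0% and 13.3% in these fits. Whether 40 h and 48 h differ was not tested. At 30 h each genotype had 1 library and there is no test. Usp18 stood at 6.06 CPM in WT and 40.8 CPM in KO there, and Isg15 at 6.10 and 5.44 CPM.

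The response to PHx in WT liver gave no called gene among the 9 in edgeR, against 11.4% of all genes called higher and 8.68% called lower (20.1% in all). None of the 9 lay apart between the stages, against 6.91% of all genes apart and higher after PHx and 10.9% apart and lower. DESeq2 called 1 (Ifit1, lower), against 9.88% of all genes called lower and 15.5% called higher. Ifit1 had a mean of 7.90 ± 3.02 CPM (SD, n = 5) before PHx, and of 2.36 ± 2.20 CPM (SD, n = 5) afterwards (log2 -1.73, SE 0.65, edgeR adjusted p 0.0664). Ifi44 had 2.21 ± 0.36 CPM (SD, n = 5) and 0.77 ± 0.67 CPM (SD, n = 5), with a log2 difference of -1.51 and an edgeR adjusted p of 0.107. Ifit3 (-1.08), Irf7 (-0.52), Isg15 (-0.55) and Rsad2 (-0.18) also had negative log2 values, and Usp18 (1.01), Oasl1 (0.79) and Ifit2 (0.03) positive ones.

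This count changed with WT replicate 4, taken at 48 h. That library held the highest level of 8 of the 9 genes in its group (all but Irf7). Without it 3 genes were called lower after PHx: Ifit1 (log2 -2.36), Ifi44 (-2.12) and Ifit3 (-1.99), with edgeR adjusted p of 0.0214, 0.0379 and 0.00622, against 0.0134 to 0.219, 0.00639 to 0.239 and 0.00435 to 0.451 over all 21 alternatives of each. In that fit 5.06% of all genes were called lower and 10% higher. The library's summed macrophage markers, 79.8 CPM, were the lowest of all 20 libraries, and its monocyte and neutrophil markers, 25.2 CPM, were the median of its group.

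In KO liver Irf7 fell after PHx and no other of the 9 passed the test, against 12.1% of all genes called lower and 17.5% called higher (29.5% in all). Irf7 went from 50.5, 41.7, 47.0, 48.1 and 64.9 CPM at baseline to 11.8 and 24.5 (48 h), 24.5 and 24.2 (40 h) and 25.8 CPM (30 h), in the order of mice 7, 8, 10, 11 and 12. The groups did not overlap, a pattern that 7.73% of all genes showed in this direction and 6.19% in the other. Irf7 was lower after PHx in 5 of 5 mice, and its level dropped 2.28-fold (log2 -1.19, SE 0.25, edgeR adjusted p 0.00274). It was called under all 21 alternatives, with a log2 change from -1.26 to -0.92. The level after PHx overlapped with WT at both stages.

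The other 8 genes differed in direction between KO mice. Ifi44 was lower in 4 of 5 mice (log2 -1.23, SE 0.62, edgeR adjusted p 0.139) and was called with the mouse as a replicate block in 18 libraries (log2 -2.09, edgeR adjusted p 0.0473, against 0.00191 to 0.375 over all 21 alternatives), which gave 2 called genes in place of 1. Mouse 11 was the exception, with 4.45 CPM before and 7.64 CPM after PHx. Without KO after PHx replicate 11 the count was also 2, and without it and WT replicate 4 together it was 4 (Ifi44, Ifit3, Irf7 and Isg15, all lower). The shares of all genes called lower were 11.7% with the block, 13% without KO replicate 11 and 14.2% without the pair. Usp18, Oasl1 and Rsad2 were higher after PHx in 3, 2 and 2 of 5 mice. Macrophage markers ran from 490.6 to 632.8 CPM before and from 110.2 to 431 CPM after PHx in KO, with 4 of 10 called lower and 1 called higher. Of the tested markers of T and NK cells 4 of 4 were called lower, and of B cells 3 of 4. Of those of plasmacytoid dendritic cells 1 of 2 was, Siglech (log2 -3.19, edgeR adjusted p 0.0152), at low means of 0.858 and 0.087 CPM. Tcf4, the other one tested, had means of 14.5 and 12.7 CPM. Of the untested, Pacsin1 had a higher mean after PHx (0.080 and 1.06 CPM), and Ccr9, Klk1 and Cox6a2 had lower ones. In WT the markers called lower were 3 of 4, 3 of 4 and 1 of 2. The part of these markers in the fall of Irf7 was not tested.

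**Figure D3:**
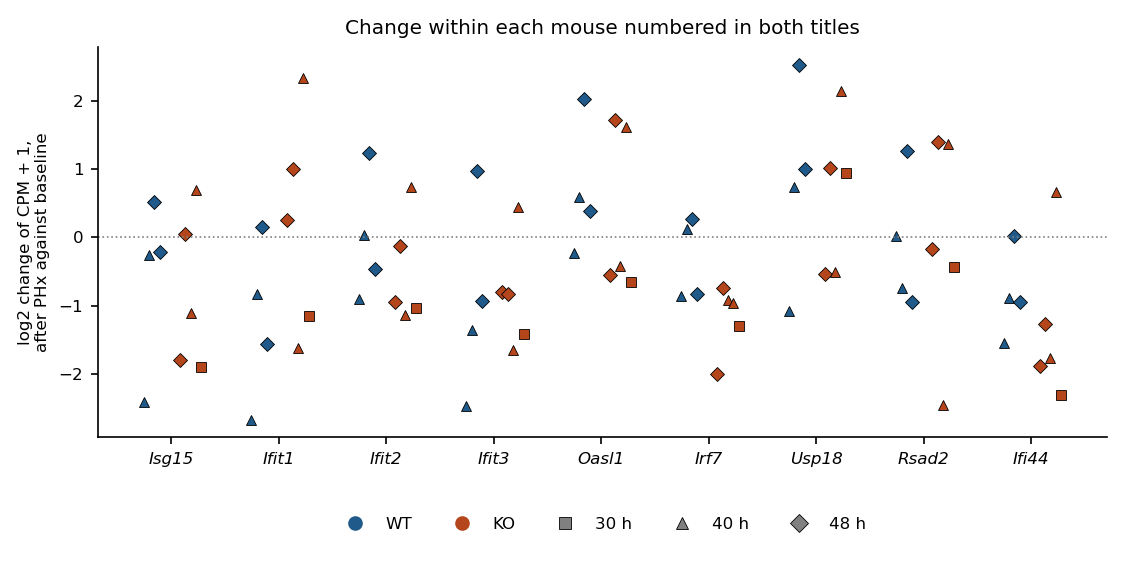
Change of log2(CPM + 1) from baseline to after PHx (y) for each gene (x) within the 9 mice numbered in both sample titles, WT in blue and KO in red. Irf7 is below 0 in 5 of 5 KO mice and 2 of 4 WT mice, and the other genes have mice on both sides of 0 in each genotype.

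The difference between the responses of KO and WT passed the test for none of the 9 genes in edgeR or in DESeq2, against 0.164% of all genes called with a higher and 0.225% with a lower response in KO (0.389% in all). Among the 9, Ifit1 had the lowest p (log2 2.49, SE 0.90, edgeR adjusted p 0.231, lowest 0.0628 over 30 alternatives). For Irf7, called in the KO response and not in the WT response, the difference was -0.67 (SE 0.35, edgeR adjusted p 0.413), so the responses were not shown to differ.

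A pair of members was positively correlated over the libraries in 36 of 36 cases, some of them weakly. The mean of log2(CPM + 1) over the 9 ran from 2.71 to 3.36 in WT and from 3.78 to 4.22 in KO libraries at baseline. After PHx it spanned 1.97 to 3.74 in the WT and 2.74 to 4.79 in the KO libraries. The highest library of all was KO after PHx replicate 11 (40 h), which held its group's highest level of 8 of the 9 genes (all but Irf7). The baseline libraries of KO were close to each other and all above the baseline libraries of WT. Pearson's r between 2 members over the 20 libraries had a median of 0.66 (0.33 to 0.87 over 36 pairs), and 0.64 (0.07 to 0.88) after the group means were subtracted. Irf7 followed the IFIT genes least, with 0.14, 0.07 and 0.15 against Ifit1, Ifit2 and Ifit3 after that subtraction. In KO baseline no library was high throughout, and replicate 12 held the group's highest level of 3 genes and its lowest of another 3. These values are descriptions, since the libraries share depth and scaling.

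**Figure D4:**
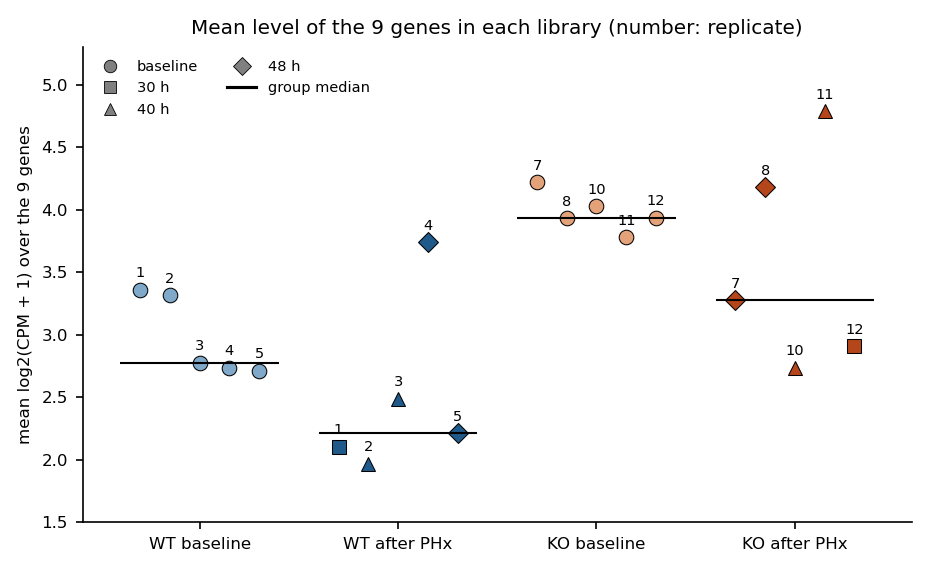
Mean log2(CPM + 1) of the 9 genes (y) in each library by group (x), labelled by replicate, with the group median as a bar. KO baseline libraries lie between 3.78 and 4.22, and replicate 4 of WT after PHx (3.74) and replicate 11 of KO after PHx (4.79) lie above the rest of their groups.

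Levels per kilobase of exon allow the genes to be ordered. At baseline Isg15 had the highest CPM per kilobase in both genotypes (10.7 ± 4.38 in WT and 20.2 ± 5.96 in KO, SD, n = 5), followed by Irf7 (6.35 ± 1.29 and 13.4 ± 2.31). Ifi44 had the lowest (0.361 ± 0.0587 and 0.938 ± 0.229). After PHx in KO the highest was Oasl1 (15.1 ± 12.8), with an SD that covers the values of Isg15 (12.9 ± 9.74) and Usp18 (10.9 ± 7.32), so these 3 were not distinct. Across groups, the order of mean CPM was KO baseline, KO after PHx, WT baseline, WT after PHx for Isg15 and Ifi44, and KO after PHx came first for Ifit1, Oasl1, Usp18 and Rsad2. Neighbours in these orders overlapped, except that Irf7 in KO baseline stood apart from the next group, WT baseline.

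Among the other genes tested, the 10 whose log2(CPM + 1) followed the mean of the 9 most closely over the 20 libraries had Pearson's r from 0.83 to 0.88. They were Mx1 (0.88), Rtp4 (0.88), Oas1a (0.87), Nfatc2 (0.86), Atp6v1b2 (0.86), Xaf1 (0.85), Ntn4 (0.84), Nckap5 (0.84), Slfn5 (0.83) and H2-DMb1 (0.83). Mx1, Rtp4, Oas1a, Xaf1 and Slfn5 belong to the list of other type I interferon-stimulated genes. After subtracting the group means Rtp4 had the highest value (0.93) and H2-DMb1 the lowest (0.60), and without the 2 libraries farthest from the median, WT after PHx replicate 2 and KO after PHx replicate 11, the values ran from 0.77 to 0.87.

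The ligands of the pathway were hardly seen. Of 21 interferon genes in the files 17 had no count in any library and none reached the filter. Ifnk had 22 reads over all 20 libraries, Ifng 11, Ifna5 6 and Ifnz 1, and no library held more than 8 reads of a ligand. At this depth interferon transcripts were not detectable or seen in a few reads only.

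The other genes of the pathway are read against the 11.1% of all genes called higher and 4.89% called lower at baseline, and 16% and 8.2% after PHx. Of the receptors, at baseline 3 of 6 were called higher in KO (Ifnlr1, Ifngr2 and Ifngr1) and 1 lower (Ifnar2, a chain of the type I receptor). Ifnar2 had 45.3 ± 4.15 CPM in WT and 29.5 ± 5.04 CPM in KO (log2 -0.62, SE 0.18, edgeR adjusted p 0.0234). Ifngr2 and Ifngr1, the chains of the interferon-gamma receptor, had log2 differences of 0.94 and 0.83. Ifnlr1, the receptor of interferon lambda, was at 0.0103 ± 0.0230 CPM in WT baseline, 0.623 ± 0.406 in WT after PHx, 1.34 ± 0.905 in KO baseline and 17.6 ± 11.9 CPM in KO after PHx (SD, n = 5), and was called higher in KO at both stages (edgeR adjusted p 0.000113 and 2.6e-05). After PHx 3 of 6 receptors were called higher in KO (Ifnlr1, Ifngr1 and Il10rb).

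Of 13 signalling genes 1, Irf8, was called in KO against WT, higher at baseline (log2 1.58, SE 0.25, edgeR adjusted p 0.000194) and after PHx (log2 0.93). The other 12, with Stat2, Irf9, Jak1 and Tyk2 among them, were not called in either comparison. At 48 h, with 2 libraries per genotype, 3 of the 13 were called lower in KO (Irf3, Stat2 and Tyk2, log2 -1.85, -1.79 and -1.03) and 2 higher (Jak2 and Irf8, 1.22 and 1.13), against 10.7% and 13.7% of all genes. With only the 4 libraries of 48 h fitted, none of all genes tested was called, these 5 included. Of 5 inhibitors Socs3 was called higher in KO at baseline (log2 2.44, SE 0.57, edgeR adjusted p 0.00632) and Pias1 after PHx (log2 0.87). Of 13 tested sensors of nucleic acid 4 were called higher at baseline, among them Aim2 (log2 2.20), Zbp1 (1.99) and Tmem173 (1.43, the gene of STING), and 2 after PHx, Tlr3 (1.31) and Tlr7 (1.22), a share near that of all genes.

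Of 39 tested other type I interferon-stimulated genes 8 were called higher in KO at baseline and 1 lower, with a median log2 difference of 0.76 against -0.03 over all genes, where 11.1% of all genes were called higher and 4.89% lower. The synthetase genes Oas1g and Oas1a and the gene Ifi27l2a led, at log2 2.76, 2.61 and 2.22, and Gm4951 was lower (-1.13). After PHx 6 were called higher, a share near the 16% of all genes, led by Oas1g (1.92), Isg20 (1.85) and Oas1a (1.67), and 2 lower (Gm4951, -1.83, and Helz2, -0.93). Of 28 tested interferon-gamma-induced genes 6 were called higher at baseline and none lower, led by the antigen presentation genes H2-Aa, H2-Eb1 and H2-Ab1 (log2 1.5, 1.49 and 1.46), and after PHx 8 were called higher and 1, Iigp1, lower (-1.61).

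**Figure D5:**
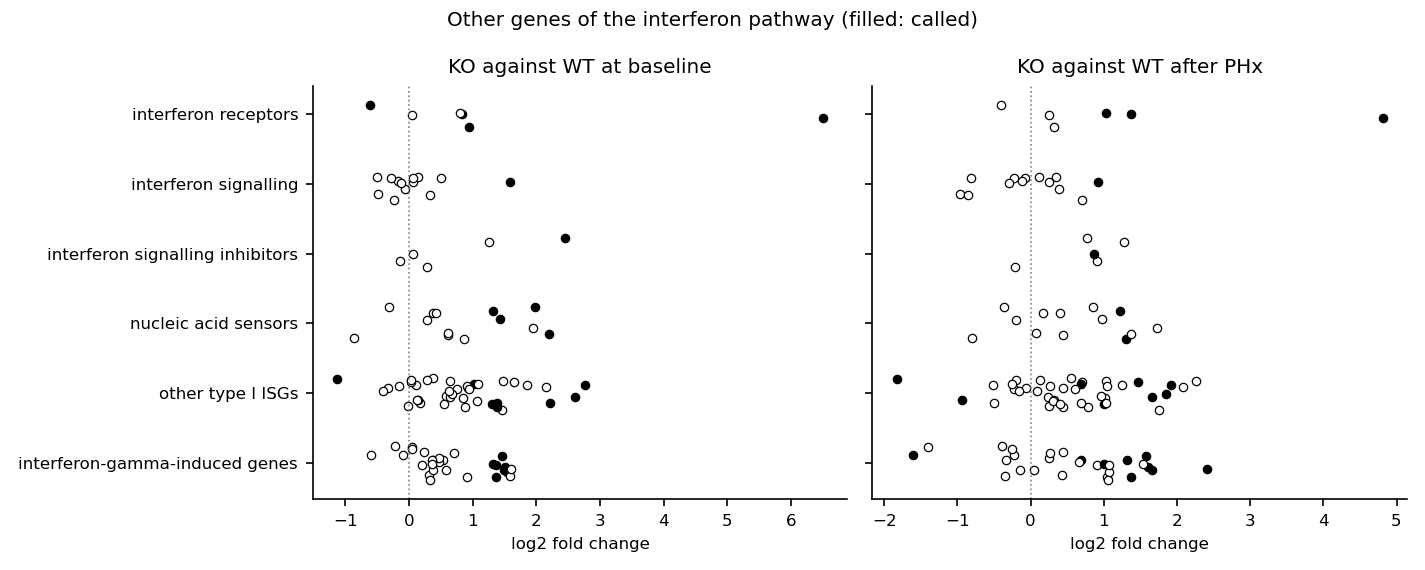
Log2 fold change (x) of the tested genes of the other lists (y), KO against WT at baseline (left) and after PHx (right), filled where called. At baseline 8 of 39 other type I genes and 6 of 28 interferon-gamma-induced genes are called higher, and the far point among the receptors is Ifnlr1.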

How the data were processed

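The authors deposited 1 file of read counts per library, whole numbers per Ensembl gene with no normalisation. Per the series' design text, polyA RNA was made into TruSeq libraries, sequenced paired-end on a NovaSeq, trimmed and aligned to mm10, and uniquely mapped reads were counted. FastQC 0.11.5 and Trimmomatic 0.36 are listed per the submitters' processing notes. The aligner, counting program, strand setting and annotation release are not given in the sources used here.

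Symbols, coordinates and exon lengths came from GENCODE M21, which held 46091 of the 46603 identifiers. Counts were tested in R 4.3.3 with edgeR 4.0.16 (quasi-likelihood, two-sided), TMM scaling and filterByExpr on the 4 groups. All 20 libraries shared 1 fit with 4 group means, and a second fit gave each time point of each genotype its own mean. P-values were adjusted by Benjamini-Hochberg over the 14661 genes, with a threshold of 0.05. SE is the log2 fold change over the root of F. The script was tested on simulated data. Alternatives were DESeq2 1.42.0, other scalings and filters, fits of the compared libraries alone, libraries left out and a replicate block. Leaving out WT replicate 4 and KO replicate 11 after PHx together, and the 18 libraries of the block fitted without it, were chosen after seeing the data. P-values measure the spread between libraries of a group. After PHx that spread in the main fit holds the time points as well as the mice. The main fit also treats both samples of a mouse as independent.

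Labels say that each mouse gave both samples, and 9 mice carry a number in both titles (WT baseline replicate 1 has none). Residual correlations of the 9 same-number pairs ran from -0.102 to 0.162 (mean 0.0591), and those of 41 different-number pairs from -0.267 to 0.298 (mean -0.0132), so the pairing rests on the labels. The genotypes share no mouse.

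All 9 members are named. A gene of the signalling list that the rule below names is not reported here. From each other pathway list up to 3 called genes per direction are named in a comparison, those with the most extreme log2 fold changes. Also named are the 10 genes most like the members by Pearson's r, and marker genes are named outside this rule. The members and lists were chosen with earlier results of these data known. Promoter sequences are RefSeq's (GRCm38.p6), cut so that they hold no annotated exon.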

Additional observations from a re-analysis of the deposited data

Results flagged for a closer look

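In 5 of 36 combinations of gene and group, 1 library lay far from the other 4 (a gap to the nearest library above 0.71 of the group's range, Dixon's 95% limit, which chance passes in about 1 in 20 groups). WT after PHx replicate 4 (48 h) was high for Oasl1 (45.31 CPM, gap 0.887 of the range), Ifit3 (11.7 CPM, 0.817) and Usp18 (29.49 CPM, 0.796). Isg15 was high in KO baseline replicate 12 (23.19 CPM, 0.823). Irf7 was low in KO after PHx replicate 7 (11.81 CPM, 0.888), the library with the lowest summed macrophage markers of its group (110.2 CPM) and the highest summed monocyte and neutrophil markers (67.4 CPM). The part of these markers in the low Irf7 value was not tested.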

How the results depend on the processing

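At baseline, Irf7 and Ifit2 were called and all 9 log2 differences were positive under each of the 17 alternatives, and the count of called members stayed at 2 without any 1 library. It was 4 with library size alone as the scaling, 4 with time point means (each time point of each genotype fitted with its own mean), 4 in DESeq2 and 7 with only the libraries compared, where 24%, 14.7%, 14.6% and 21.4% of all genes were called higher (11.1% in the fit reported). After PHx the count of 2 became 7 with library size alone, 5 with time point means, 1 with only the libraries compared, 5 in DESeq2, 6 without WT replicate 4 and KO replicate 11 together, and 1 to 7 when 1 library was left out. Of all genes 26.6%, 18.1%, 8.12%, 18.2% and 13.5% were called higher in the first 5 of these fits (16% in the fit reported). In the WT response the count of 0 became 3, 2 and 1 with time point means, only the libraries compared and DESeq2, 3 without both libraries, and 0 to 3 with 1 left out, with 13.5%, 11.1%, 9.88% and 5.8% of all genes called lower in the first 4. In the KO response the count of 1 became 2 with time point means, 4 without both libraries, 2 with the mouse as a replicate block, and 1 to 2 with 1 left out, with 20.1%, 14.2% and 11.7% of all genes called lower in the first 3. The block changed no other call among the 9 genes, and the same 18 libraries without it gave 1 in KO. No paired fit of KO against WT was possible because the genotypes share no mice. The difference of responses had 0 called genes under each alternative. With only the libraries compared it was 0 at 40 h and 0 at 48 h, and with 1 library left out 0 to 8 at 40 h and 0 to 3 at 48 h, where the lone library was assumed to vary like the other groups.

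Changes of sign fell on differences that were not called. In the WT response Ifit2 was at -0.017 with time point means, -0.000883 without the 30 h libraries, -0.26 without both libraries and -0.10 with the replicate block, and Rsad2 at 0.19 with library size alone, 0.066 without 30 h and 0.25 in the 18 libraries without the block. In the KO response Rsad2 was at -0.059 without both libraries and -0.029 with the replicate block. In the difference of responses Isg15 was at 0.099 without 30 h, Ifit3 at -0.13 in the 18 libraries, Usp18 at 0.26 with time point means and 0.40 without both libraries, and Ifi44 at -0.25 without both libraries and -0.42 with the replicate block. At 48 h Ifit3 was at -0.019 without a filter. With 1 library left out, the ranges that crossed 0 were -0.26 to 0.24 for Ifit2 and -0.87 to 0.077 for Rsad2 in the WT response, and -0.061 to 0.63 for Rsad2 in the KO response. In the difference of responses they were -0.66 to 0.26 for Isg15, -0.14 to 1.13 for Ifit3, -0.83 to 0.51 for Oasl1, -0.45 to 0.74 for Usp18 and -0.92 to 0.85 for Ifi44. At 40 h the range was -1.02 to 2.54 for Rsad2. At 48 h it was -1.12 to 1.19 for Isg15, -0.75 to 1.53 for Ifit3, -0.66 to 1.33 for Oasl1, -0.60 to 0.50 for Irf7, -0.96 to 1.27 for Usp18 and -0.46 to 1.86 for Ifi44. The cause of these changes was not tested.

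Library size alone moved the median log2 difference of all genes at baseline from -0.03 to 0.45, and the calls over all genes from 1631 higher and 717 lower to 3521 and 113 (1992 and 340 with upper quartile scaling). The calls went from 2342 and 1202 to 3897 and 296 after PHx, from 1677 and 1273 to 3796 and 582 in the WT response and from 2561 and 1770 to 4059 and 961 in the KO response. Depth limits Ifi44 most, with 5 reads in WT after PHx replicate 2.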

Other observations

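Interferon-gamma-induced genes, among them genes of antigen presentation and chemokines, were more often called lower than higher after PHx. Of 28 tested, 8 were called lower and 1 higher in WT, and 10 lower and none higher in KO, against 8.68% lower and 11.4% higher of all genes in WT and 12.1% and 17.5% in KO, with medians of -0.92 and -0.93 on the log2 scale against 0.04 and 0.10 over all genes. The chemokine gene Cxcl9 went from 9.62 ± 1.73 to 1.14 ± 0.56 CPM (SD, n = 5) in WT (log2 -3.08, SE 0.48, edgeR adjusted p 0.000305) and from 11.9 ± 5.69 to 1.55 ± 1.10 CPM (SD, n = 5) in KO (log2 -2.96, SE 0.47, edgeR adjusted p 0.000619). Ciita, the master regulator of class II antigen presentation genes, had log2 changes of -2.45 and -2.91, and its target H2-Eb1 of -2.46 and -2.30. Nlrc5, a regulator of class I genes, was the gene called higher in WT (log2 1.23). Markers of T and NK cells summed to between 2.89 and 4.55 CPM in WT baseline and between 0.0709 and 0.913 CPM in WT after PHx libraries, and to between 4.51 and 7.73 and between 0.198 and 2.02 CPM in KO, with 3 of 4 tested called lower in WT and 4 of 4 in KO. B cells express class II genes. Their markers summed to between 8.91 and 18.4 CPM before and between 0.461 and 3.45 CPM after PHx in WT. In KO the B cell markers summed to between 8.50 and 11.7 and between 0.944 and 4.27 CPM. Of the 4 tested, 3 were called lower in each genotype. Macrophage markers summed to between 190 and 334.5 CPM before and between 79.8 and 401.2 CPM after PHx in WT. Of 10 markers 1 was called lower and 2 higher there. In KO the sums were 490.6 to 632.8 and 110.2 to 431 CPM, with 4 of 10 called lower and 1 higher. Of 2 tested plasmacytoid dendritic cell markers 1 was called lower in each genotype. The part of these marker lists in the fall of the interferon-gamma-induced genes was not tested.

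In the KO response 4 of 13 signalling genes fell, among them Tyk2 (log2 -1.11, SE 0.30, edgeR adjusted p 0.0109) and Irf5 (-0.84), and 2 rose, Tbk1 (1.12) and Jak1 (0.63), against 12.1% of all genes called lower and 17.5% higher. In WT 1 fell, Irf5 (-0.91), a share near the 8.68% of all genes, and none rose. Of 39 other type I interferon-stimulated genes 8 fell in KO, led by Gm4951 (-1.85), Phf11d (-1.39) and Bst2 (-1.20), against 12.1% of all genes called lower. In WT 4 fell and 1 rose, near or below the 8.68% and 11.4% of all genes, with Bst2 (-1.30) the lowest and Lgals3bp (0.54) the one that rose. None of these genes was called in the difference of the responses.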
